A study of Mus musculus with 15 samples.

Results

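The regions described here are stretches of the mouse genome that carried acetylated histone H3 at lysine 27 (H3K27ac) in eosinophils grown from C57 bone marrow, set against 3 other myeloid H3K27ac lists. Peaks of the 2 C57 libraries were merged wherever they shared at least 1 bp, which gave 27797 regions. The 14323 regions that held a peak of both libraries, 51.5% of the merged regions, are called members below. Over all 7 H3K27ac lists of the series, merging gave 76987 regions. The outside lists are named Neut, mBMDM and ImmGran in the deposited files, and are referred to by those names, for which neutrophil, bone marrow derived macrophage and immature granulocyte are working readings.

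The study profiled eosinophils cultured from bone marrow of 2 strains, in 15 libraries. Unselected bone marrow progenitors were grown for 14 days, with stem cell factor and FLT3 ligand at 100 ng/mL each on days 0 to 3 and with interleukin-5 at 10 ng/mL on days 4 to 14, and no group received another treatment. The C57 group (strain label BL6/57) comprised 2 H3K27ac and 2 ATAC-seq libraries. The BALB/c group comprised 2 libraries each of H3K27ac, H3K4me3, H3K4me1 and ATAC-seq, 1 of the transcription factor PU.1, and 2 RNA libraries that were not used here. H3K27ac and PU.1 lists for Neut, mBMDM and ImmGran came from other series that the authors re-analysed, with 1 list of each kind per cell type. The labels do not give the strain, laboratory or protocol of the outside cells, so these cannot be told apart from cell type. Sex, age, and whether libraries of a group came from separate animals are not in the labels, so the spread between 2 libraries may be technical.

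H3K27ac marks active promoters and enhancers. Active promoters also carry H3K4me3, whereas enhancers more often carry H3K4me1 and vary more between cell types. ATAC-seq reads out chromatin that is open to a transposase. PU.1 is a transcription factor needed for the myeloid lineages, and it binds many enhancers of neutrophils, macrophages and eosinophils.

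The C57 libraries differed in the number of peaks called, with 14992 in replicate 1 and 27527 in replicate 2. Of the replicate 1 peaks, 97.7% overlapped replicate 2, and 52.3% of the replicate 2 peaks overlapped replicate 1. Replicate 1 alone held 347 merged regions and replicate 2 alone 13127, so replicate 1 set most of the membership. Members had a median width of 1305 bp and covered 19.7 Mb. The BALB/c H3K27ac lists held 20467 and 23203 peaks, and the outside lists 21838 (Neut), 59401 (mBMDM) and 36357 (ImmGran). Read depth is unknown for all of these lists. The identity of the cells could not be checked against marker genes, because gene positions on the mm9 build were not used here.

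Most C57 acetylated regions were shared with other myeloid cells. The Neut list held a peak at 76.1% of members, the ImmGran list at 80.5% and the mBMDM list, the longest, at 89.0%. Over all merged C57 regions, the same lists held a peak at 55.3%, 57.7% and 72.7%. Regions found in replicate 2 alone were shared less, at 33.3% for Neut, 33.7% for ImmGran and 55.5% for mBMDM. Members were thus the more widely shared part of the C57 lists for each of the 3 outside lists.

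Counted together, 9297 members, or 64.9%, held a peak in all 3 outside lists, against 40.1% of all merged regions. A further 2978 members (20.8%) were shared with 2 lists and 1333 (9.31%) with 1 list. The remaining 715 members, 4.99%, were found in no outside list, against 17.3% of all merged regions. Of members shared with 1 list, 805 were shared with mBMDM alone, 286 with Neut alone and 242 with ImmGran alone. Of those shared with 2, 1664 were in mBMDM and ImmGran, 987 in Neut and mBMDM, and 327 in Neut and ImmGran. The mBMDM list, with the highest counts, was also the longest. When each outside list was limited to its 21838 most significant peaks, members in no outside list rose to 1443 (10.1%), and those in all 3 fell to 7331 (51.2%). The count also depended on the C57 library: of the 27527 regions of replicate 2 taken alone, 4714 were in no outside list, and 40.4% were in all 3. At a −log10 q of at least 5 in all lists, 3635 members were left, with 36 in no outside list.

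**Figure D1:**
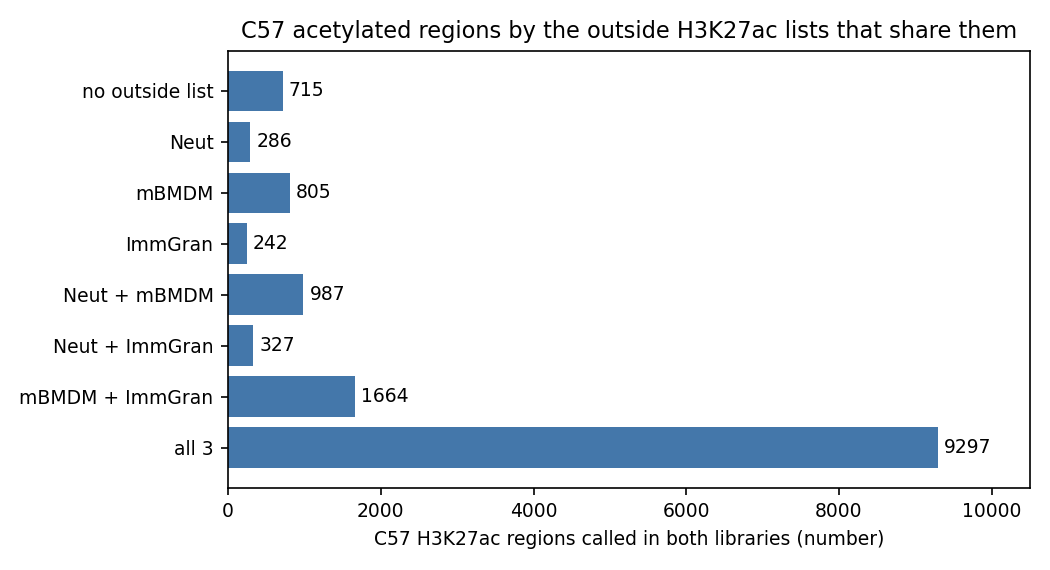
Bars give the number of C57 H3K27ac regions called in both libraries (x axis) for each combination of outside H3K27ac lists with a peak at the region (y axis). The 9297 regions shared with all 3 outside lists form the longest bar, and 715 regions were in none of them.

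Members in no outside list were weaker and narrower than those in all 3. A peak's strength is given here as its percentile, by −log10 q, within its own C57 list. The median percentile of members in no outside list was 22.7 in replicate 1 and 50.1 in replicate 2, against 64.0 and 80.5 for members in all 3. Median widths were 1124 and 1384 bp. Across deciles of members ranked by mean percentile over both C57 libraries, the share in no outside list went from 15.9% in the weakest decile to 0.140% in the strongest. The share in all 3 lists went from 27.8% to 94.6%. The strongest C57 acetylation was therefore almost wholly shared with the other myeloid lists. The share of members with a peak in both BALB/c libraries followed the same course, from 56.1% in the weakest decile to 99.8% in the strongest.

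**Figure D2:**
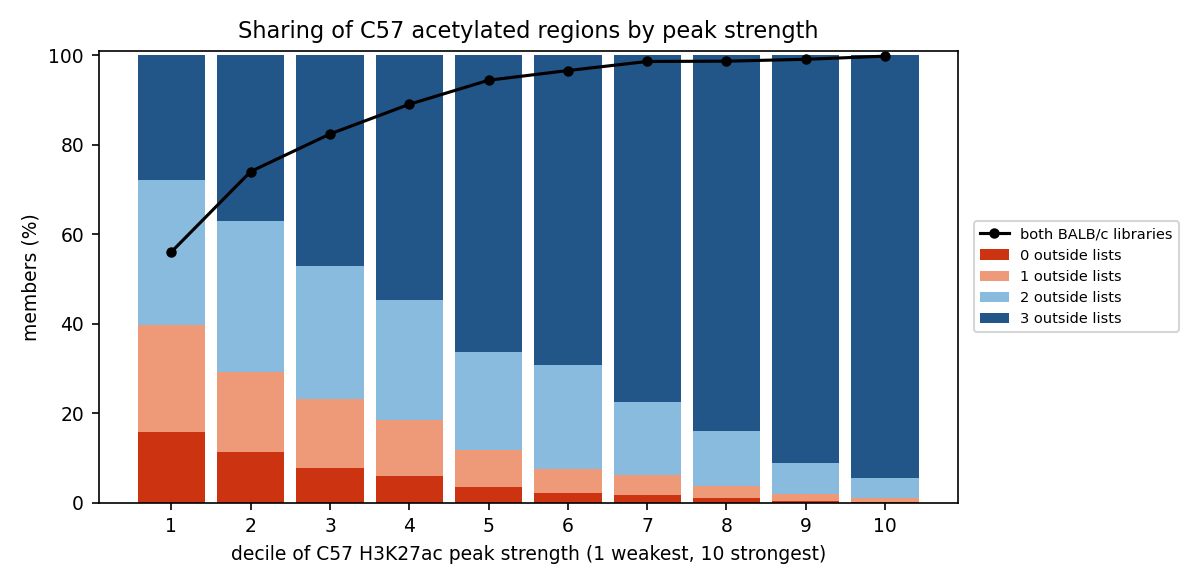
Stacked bars give the share of members (y axis, %) found in 0, 1, 2 or 3 outside lists for each decile of C57 peak strength (x axis), and the line gives the share with a peak in both BALB/c H3K27ac libraries. Members in all 3 lists make up 27.8% of the weakest decile and 94.6% of the strongest.

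The top-ranked regions of each set are given as examples of single members, and they are not typical of their sets in width. For each set the 3 members of lowest mean rank by −log10 q over both C57 lists were taken, and positions are on mm9. Fold enrichments and −log10 q values are the authors' own for each peak. Among members of no outside list, chr13:13952889-13953359 ranked first, with a fold enrichment of 7.84 and 8.44 in the C57 replicates and of 5.10 and 7.98 in the BALB/c replicates. It is 471 bp wide and held peaks of ATAC in both strains and of H3K4me3 and H3K4me1 in both BALB/c libraries. The second, chr11:73914186-73915373, had a fold enrichment of 7.21 and 5.16 in the C57 replicates and of 4.63 and 4.22 in the BALB/c replicates. It carried peaks of C57 ATAC, BALB/c H3K4me1 and PU.1 but none of H3K4me3 in either library. The third, chr14:122968110-122968447, had a C57 fold enrichment of 5.10 and 12.9 and no peak in either BALB/c H3K27ac library. It is 338 bp wide and held an ATAC peak in C57 replicate 1 alone. BALB/c eosinophils were thus acetylated at the first 2 of these regions and not called at the third.

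For Neut alone, chr6:103264533-103264851 reached a fold enrichment of 6.73 and 15.6 in C57 and 10.95 in Neut, with ATAC peaks in both C57 libraries. Neither BALB/c H3K27ac nor BALB/c ATAC had a peak there. The other 2 leading regions of this set, chr16:57391344-57391857 and chr16:17222233-17222628, had a BALB/c H3K27ac peak and a BALB/c ATAC peak in both libraries. For mBMDM alone, chrX:166649885-166650346 reached 17.1 in each C57 replicate and 6.57 in mBMDM, and BALB/c reached 12.8 and 16.8. It is 462 bp wide and held peaks of ATAC in both strains, of both H3K4 marks and of PU.1 in all 4 cell types. For ImmGran alone, chr7:75420539-75421696 reached 4.82 and 4.57 in C57 and 5.39 in ImmGran. It carried H3K4me3 in both BALB/c libraries and PU.1 in BALB/c eosinophils, and no PU.1 peak in any outside list.

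The 3 leading members shared by all outside lists were chr12:3109721-3110241, chr9:35112718-35113314 and chr6:103598950-103599417. Their C57 −log10 q values ran from 102.2 to 144.6. Each of them had a peak in every one of the 19 lists used, ATAC, H3K4me3, H3K4me1 and PU.1 lists included, as 645 members did. They are 468 to 597 bp wide, narrower than the median member. Of the 15 members named by this rule, 10 were under 600 bp wide, against 3.41% of all members. The 600 bp limit was chosen after these values were seen, and no list of high-signal regions to exclude was used here. Narrow, strong peaks in every assay are also the known pattern of regions with artificially high signal, and whether these regions are of that kind was not tested. Without the 489 members under 600 bp, 646 members were in no outside list and 66.3% were in all 3.

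Members of no outside list were counted in windows of 1 Mb. At least 1 lay in 495 of the 1812 windows that held a member, and 34 windows held 3 or more. The windows with the most were chr10:18000001-19000000, with 6 of its 10 members in no outside list, and chr11:108000001-109000000, also with 6 of 10. Then followed chr10:69000001-70000000 with 5 of 8, chr12:36000001-37000000 with 5 of 11 and chr11:72000001-73000000 with 5 of 22. In the first window, 5 of the 6 had an ATAC peak in both C57 libraries, 2 were acetylated in both BALB/c libraries and 3 in neither. In the second, 4 of the 6 were acetylated in both BALB/c libraries and 5 carried H3K4me3 in both. Over the 5 windows together, 17 of the 27 such members were acetylated in both BALB/c libraries and 22 held a C57 ATAC peak in both libraries. Over all 715 members in no outside list these shares were 61.7% and 69.4%.

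C57 chromatin was open at most members, and more often at those shared with more outside lists. An ATAC peak of both C57 libraries was present at 91.2% of members, against 65.3% of all merged regions. Members in no outside list had an ATAC peak at 74.4% in replicate 1 and 76.1% in replicate 2. The values were 80.6% and 80.9% with 1 outside list, 88.6% and 90.4% with 2, and 97.7% and 97.9% with all 3. At each step the change was larger than the gap between the ATAC libraries. Members shared with Neut alone, at 73.8% and 75.5%, lay as low as those in no list. Members shared with mBMDM alone (83.1% and 82.5%) or ImmGran alone (80.6% and 82.2%) lay above them. ATAC peaks in the highest 25% of their own list were found at 12.7% and 12.2% of members in no outside list and at 59.0% and 59.4% of those in all 3. Regions are not replicates, so these shares carry no p-value. Both ATAC libraries called a peak at 69.4% of members in no outside list and 96.9% of those in all 3, 27.5 points apart. With the peaks of C57 H3K27ac replicate 1 taken as the regions, this gap was 48.1 points. It was 63.4 with all 27527 peaks of replicate 2. With all lists at 14992 peaks, the ATAC lists included, it was 45.4. The size of the gap thus depended on the regions and on the list lengths.

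Width and strength moved with these shares. Among the narrowest quintile of members (309 to 966 bp), ATAC peaks were found at 54.2% and 55.7% of those in no outside list, against 91.1% and 91.6% of those in all 3. Among the widest quintile the values were 95.4% in each library, against 99.5% and 99.4%. In the weakest quintile of C57 peaks, they were 66.5% and 69.1%, against 87.8% and 90.0%. The order thus held in the narrow and the weak members, with a smaller gap in the weak ones, while among wide members nearly all regions were open. The strongest quintile held 8 members in no outside list, all of them with an ATAC peak in both libraries.

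The same chromatin was open in BALB/c eosinophils. BALB/c ATAC peaks of both libraries were present at 88.9% of members, against 62.9% of all merged regions. Members in no outside list reached 65.0% and 66.7%, and those in all 3 reached 97.4% in each library. In each set shared with 0 or 1 list, the C57 ATAC lists, which are longer, held a peak at more members than the BALB/c lists did.

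The methylation marks of H3K4 changed in opposite directions with sharing. These marks were measured in BALB/c eosinophils alone, so they describe the C57 regions through the other strain. H3K4me3, the promoter mark, was present in both libraries at 75.1% of members, against 49.6% of all merged regions. It was found at 25.6% and 29.9% of members in no outside list and at 86.8% and 88.4% of those in all 3. H3K4me1 was present in both libraries at 20.7% of members, close to the 21.6% of all merged regions. It went from 47.6% and 45.2% of members in no outside list to 25.2% and 23.8% of those in all 3. Members in no outside list thus more often had the enhancer mark and less often the promoter mark than those in all 3, by margins well above the gaps between libraries. This H3K4me1 level was not particular to them. It was found at 49.0% and 44.8% of members of Neut alone and at 52.5% and 46.7% of ImmGran alone. Members in both Neut and ImmGran had 53.8% and 47.7%, and members of mBMDM alone 38.4% and 38.8%.

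Sets shared with 1 list differed among themselves in this respect. H3K4me3 was present at 24.1% and 30.1% of members shared with Neut alone and at 56.1% and 58.1% of those shared with mBMDM alone. Members of ImmGran alone lay between, at 37.2% and 45.5%. Among the 10750 members with H3K4me3 in both libraries, 1.65% were in no outside list and 74.4% in all 3. Among the 3012 with H3K4me3 in neither, these shares were 16.4% and 33.5%. ATAC also followed sharing within members that lacked H3K4me3, from 68.1% and 70.1% in no outside list to 90.4% and 90.8% in all 3.

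**Figure D3:**
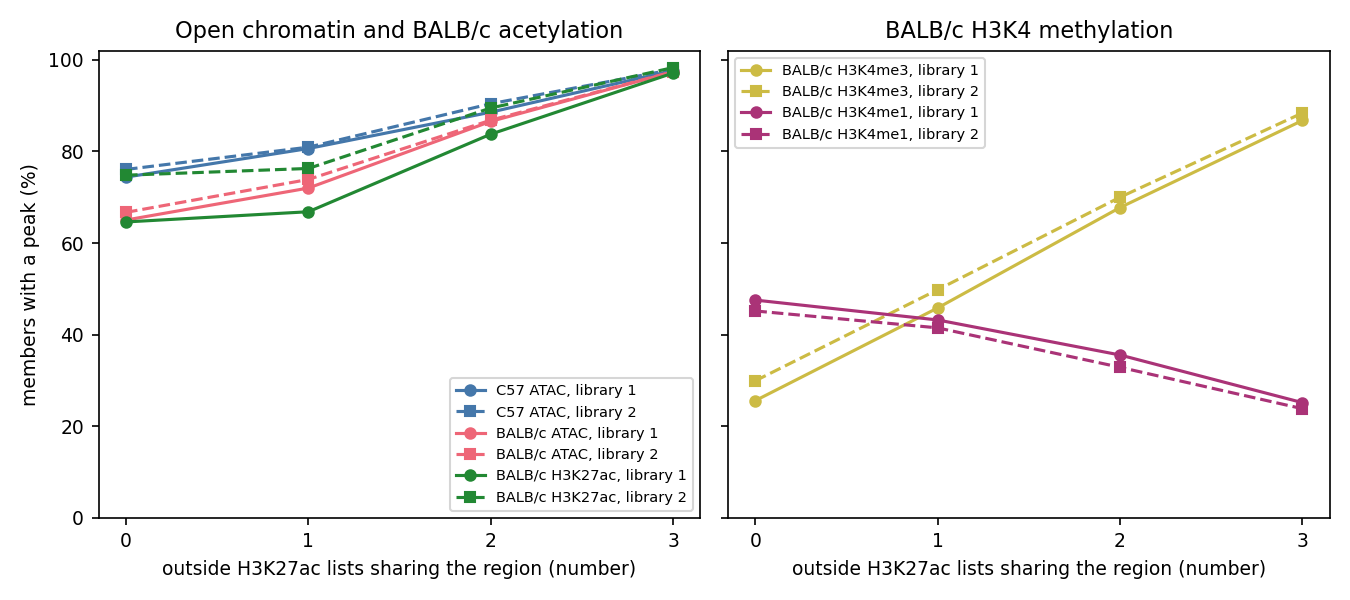
Each line gives the share of members with a peak of one library (y axis, %) against the number of outside H3K27ac lists with a peak at the region (x axis), with circles for library 1 and squares for library 2. ATAC, BALB/c H3K27ac and H3K4me3 rise with sharing, and H3K4me1 falls, from 47.6% to 25.2% in library 1.

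PU.1 peaks of Neut and of mBMDM were more frequent at members shared with the same cell type alone than at members of no outside list. These sets were defined by acetylation in those same cell types, so no result about PU.1 is drawn from this contrast. Eosinophil PU.1 was measured in BALB/c alone. BALB/c eosinophil PU.1 was found at 91.3% of members, against 75.1% of all merged regions. The outside PU.1 lists were found at 76.4% (Neut, background 62.3%), 87.2% (mBMDM, background 70.7%) and 57.1% (ImmGran, background 43.1%). In members of no outside H3K27ac list, eosinophil PU.1 was present at 76.5% (95% Wilson interval 73.3 to 79.5). There, Neut PU.1 was present at 36.1% (32.6 to 39.7), mBMDM PU.1 at 36.8% (33.3 to 40.4) and ImmGran PU.1 at 18.2% (15.5 to 21.2). These intervals treat regions as independent and cover counting error alone, with 1 PU.1 library per cell type.

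In members acetylated in Neut alone among the outside lists, Neut PU.1 was present at 80.8% (75.8 to 84.9), while mBMDM PU.1 was present at 49.7% and ImmGran PU.1 at 38.8%. In members of mBMDM alone, mBMDM PU.1 reached 79.9% (77.0 to 82.5), while Neut PU.1 reached 44.3%. Set against all members, the 79.9% lay below the 87.2% of mBMDM PU.1, and the 80.8% lay above the 76.4% of Neut PU.1. In members of ImmGran alone, ImmGran PU.1 was present at 32.2% (26.7 to 38.4), below the 38.8% found in members of Neut alone. Neut and mBMDM PU.1 in their own sets, at 80.8% and 79.9%, lay above their 36.1% and 36.8% in members of no outside list. These differences could not be set against the spread between libraries, since the intervals cover counting error alone. ImmGran PU.1 in its own set lay above its 18.2% in members of no outside list but not above its share in members of Neut alone. Eosinophil PU.1 lay between 75.5% and 83.5% in all 4 of these sets and reached 96.1% in members of all 3 lists.

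PU.1 lists ranged from 35266 to 135034 peaks, so they were also compared at 35266 peaks each, an alternative added after the data were seen. Neut PU.1 was then present at 62.2% of members of Neut alone against 16.2% of members of no outside list, and mBMDM PU.1 at 36.6% of members of mBMDM alone against 10.8%. Eosinophil PU.1 was present at 59.4% of members of no outside list, above each of the 3 outside PU.1 lists, which lay between 10.8% and 18.2%. Over all members the eosinophil list was also the most frequent at equal length, at 75.5%. ImmGran followed at 57.1%, Neut at 48.2% and mBMDM at 43.5%, so the eosinophil lead is not particular to members of no outside list. The 36.6% of mBMDM PU.1 in members of mBMDM alone lay below its 43.5% over all members. The 62.2% of Neut PU.1 in members of Neut alone lay above its 48.2%.

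**Figure D4:**
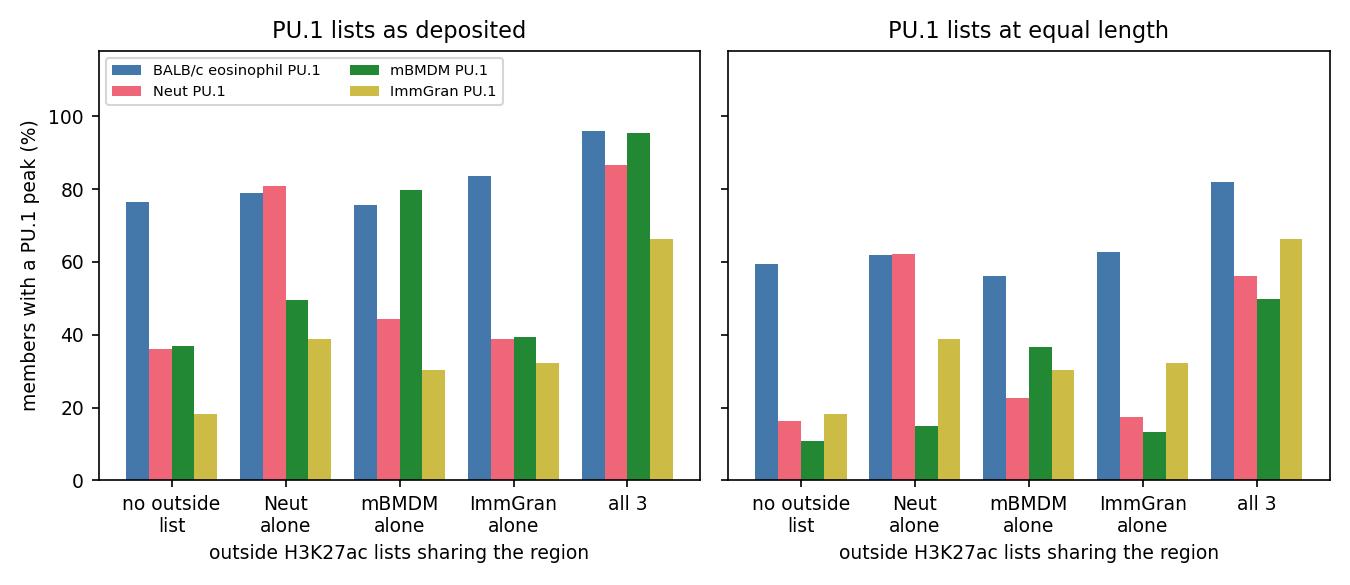
Bars give the share of members with a PU.1 peak (y axis, %) in 5 sets of members defined by the outside H3K27ac lists that share them (x axis), with PU.1 lists as deposited on the left and limited to 35266 peaks each on the right. The Neut PU.1 bar rises from 36.1% in members of no outside list to 80.8% in members of Neut alone, and the eosinophil PU.1 bar stays between 75.5% and 83.5% in the first 4 sets.

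BALB/c eosinophils were acetylated at most members, and at members of no outside list less often than at those in all 3. A BALB/c H3K27ac peak in both libraries was found at 88.9% of members, against 58.8% of all merged regions. It was present at 64.6% and 74.8% of members in no outside list, by BALB/c replicate, and at 97.1% and 98.3% of those in all 3. Members of ImmGran alone were acetylated at 81.4% and 88.4% in BALB/c, and members of mBMDM alone at 61.7% and 72.0%, a gap larger than that between the BALB/c libraries. Members of mBMDM alone thus lay slightly below members of no outside list in each library. In the weakest quintile of C57 peaks, both BALB/c libraries held a peak at 49.4% of members in no outside list. The share was 49.6% with 1 list and 80.6% with all 3. In the strongest quintile these shares were 100% of 8 members, 83.3% of 36 and 99.8%. Of the 715 members in no outside list, 441 (61.7%) were in both BALB/c libraries and 159 (22.2%) in neither. With all 27527 peaks of C57 replicate 2 taken as the regions, 22.9% of those in no outside list were in both BALB/c libraries. With all 14992 peaks of replicate 1 this share was 51.4%. The gap to regions in all 3 lists, 35.0 points among members, was then 66.4 and 44.5 points. The 441 form the part of the eosinophil acetylation found in both strains and in none of the 3 outside lists. They held a C57 ATAC peak at 82.8% and 84.4%, and a BALB/c ATAC peak at 79.1% and 80.3%. The 159 held a C57 ATAC peak at 54.7% and 57.2% and a BALB/c ATAC peak at 33.3% and 34.6%.

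In all, 816 members (5.70%) had no peak in either BALB/c library. They were shared less with the outside lists than members in general. The mBMDM list held a peak at 69.1% of the 816 (89.0% of all members), the Neut list at 38.4% (76.1%) and the ImmGran list at 33.6% (80.5%), and 19.5% were in none (4.99%). They were narrow, with a median of 868 bp, and their C57 ATAC shares of 67.2% and 69.1% exceeded their BALB/c ATAC shares of 44.0% and 46.6%. The 816 were chosen as called in C57 and not in BALB/c, and the C57 ATAC lists were longer. Such regions made up 24.0% of the weakest decile of members and 0.140% of the strongest, and no comparison at like strength was made. Counted from the other strain, 1162 of 17787 BALB/c regions called in both libraries had no peak in either C57 library. Of these, 36.8% were in no outside list, against 3.58% of the BALB/c regions in both C57 libraries, and their median width was 647 bp. Their BALB/c ATAC shares were 45.1% and 49.5%, and their C57 ATAC shares were 30.7% and 33.6%. Absence from a list is a statement about calling, since weak regions can miss the threshold of one library.

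Peaks on chromosome Y also separated the strains in the H3K27ac and ATAC lists. The C57 H3K27ac lists held 4 and 6 Y peaks and the C57 ATAC lists 6 and 7, whereas each BALB/c H3K27ac, ATAC, H3K4me3 and H3K4me1 list held 1. The BALB/c PU.1 list held 13. Of the outside H3K27ac lists, Neut held 0, ImmGran 4 and mBMDM 16. Of the 4 members on Y, 3 were in neither BALB/c H3K27ac list, at chrY:346134-347548, chrY:581301-582351 and chrY:622071-623294, with a C57 ATAC peak in both libraries. The other, at chrY:2652039-2652481, was also called in both BALB/c libraries of H3K27ac, ATAC, H3K4me3 and H3K4me1. Whatever sets the Y peaks cannot be told apart from strain in these lists. On autosomes alone, 698 members were in no outside list and 64.9% in all 3, so the counts of sharing hardly moved.

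Regions acetylated in all 3 outside lists were counted from the other side. Merging peaks of the outside and C57 lists together gave 12298 regions with a peak of each outside list. A C57 peak can join outside peaks that do not touch, so this total can depend in part on the C57 lists. Of the 12298, 9397 (76.4%) were acetylated in both C57 libraries, 1867 (15.2%) in 1 and 1034 (8.41%) in neither. In the last group a C57 ATAC peak was present at 40.0% and 40.4%, against 98.1% and 98.3% where both C57 libraries were acetylated. BALB/c H3K27ac was absent from both libraries at 81.9% of the 1034. The rule fixes the absence in C57, so the BALB/c share alone is an observation. The count rested on C57 replicate 2: with replicate 1 as the only C57 list it was 2933, with a C57 ATAC peak of both libraries at 59.3% in place of 29.9%. It was 306 with the outside lists at 21838 peaks each. BALB/c eosinophil PU.1 was present at 64.4% of the 1034, Neut PU.1 at 94.7%, mBMDM PU.1 at 94.2% and ImmGran PU.1 at 64.6%. Where both C57 libraries were acetylated, these shares were 96.9%, 89.6%, 96.8% and 68.9%. The eosinophil list differed most, but the 2 groups were defined by eosinophil acetylation, so no result about PU.1 is drawn from it. BALB/c H3K4me3 was found at 10.6% and 12.6% of the 1034, against 86.8% and 88.4% where both C57 libraries were acetylated. The same limit holds for this contrast and for that of C57 ATAC.

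The region of lowest mean rank over the outside lists in this group was chr3:67360701-67362381, with a fold enrichment of 4.71 in Neut, 5.65 in mBMDM and 7.24 in ImmGran. ATAC peaks of both C57 libraries lay there, at the 48.8 and 66.6 percentiles of their lists, and PU.1 of all 4 cell types. The next, chr11:77198746-77201082, had fold enrichments of 4.14, 5.22 and 5.77, and the third, chr5:4529873-4531826, had 4.51, 4.94 and 5.48. Both held an ATAC peak in C57 replicate 1, and the second held one in replicate 2 too. Neither eosinophil strain had an H3K27ac peak at any of the 3.

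The distance between strains was then set beside the distance to the outside lists. Each H3K27ac list was limited to its 14992 most significant peaks, the length of the shortest, and pairs of lists were compared by the Jaccard index, the bases shared by both over the bases covered by either. The C57 replicates had an index of 0.559 with each other. Replicate 1 had 0.513 and 0.508 with the BALB/c replicates, and replicate 2 had 0.558 and 0.591. With Neut the C57 replicates had 0.339 and 0.371, with mBMDM 0.296 and 0.346, and with ImmGran 0.259 and 0.265. Every cross-strain index lay above every index to an outside list. The mean was 0.542 ± 0.039 (SD over 4 pairs that share libraries) between strains and 0.313 to the outside lists. The difference of 0.230 had a one-sided p of 0.1 by an exact permutation test over which 2 of the 5 other lists are the BALB/c ones. That is the smallest p that the 10 possible choices allow, so the design cannot reach 0.05.

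**Figure D5:**
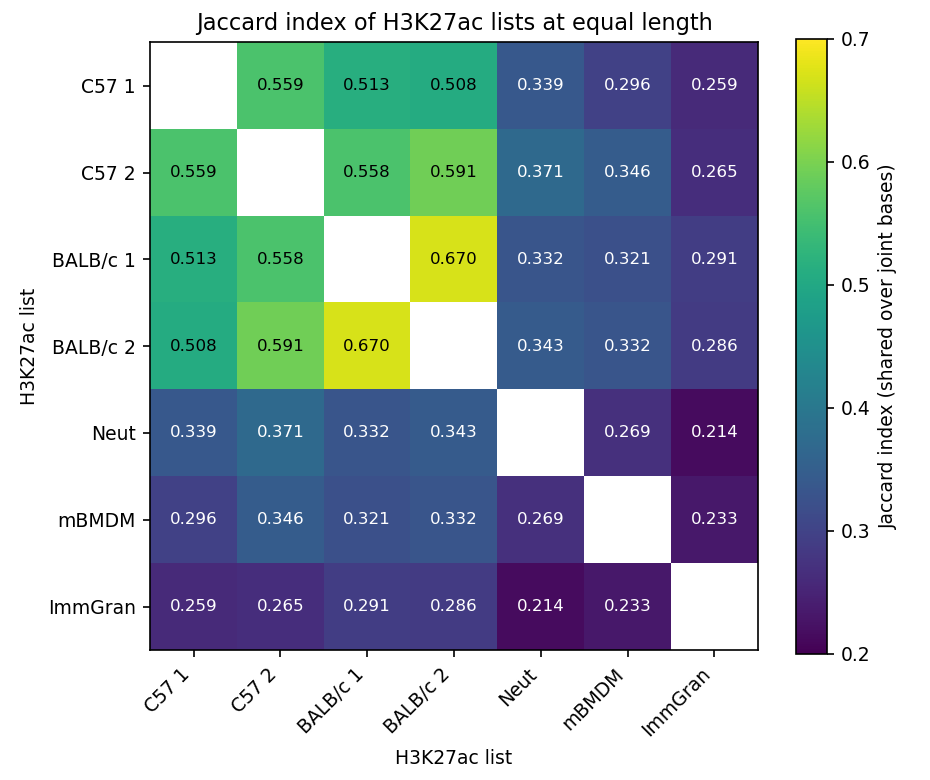
Each cell gives the Jaccard index of a pair of H3K27ac lists, rows and columns naming the lists, at 14992 peaks each. The block of 4 eosinophil lists runs from 0.508 to 0.670, and all indices that involve an outside list run from 0.214 to 0.371.

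Distance was taken as 1 minus the index. The C57 lists lay 0.458 from the BALB/c lists (strain distance) and 0.687 from the outside lists, a ratio of 0.666. In the second distance, cell type cannot be told apart from the strain, laboratory and protocol of the outside cells. By list, strain distance came to 0.709 of the distance to Neut, 0.674 of that to mBMDM and 0.620 of that to ImmGran. The C57 replicates were themselves 0.441 apart, so most of the strain distance was also present between replicates of 1 strain. After the C57 replicate distance was taken off both, the ratio was 0.0686. The BALB/c replicates were 0.330 apart, so this ratio depends on which pair is taken off. It was not computed with the BALB/c pair. The index of C57 replicate 2 with BALB/c replicate 2, 0.591, exceeded that of the C57 pair. The BALB/c replicates, at 0.670, were closer to each other than the C57 replicates were, and closer than any cross-strain pair. With lists as deposited the BALB/c pair had 0.650, against 0.461 to 0.560 for the cross-strain pairs. With lists as deposited the C57 pair fell to 0.453, below the cross-strain mean of 0.508, so the corrected ratio turned negative. Strain distance thus lay below the distance to the outside lists, while whether it exceeded the distance between C57 replicates changed with the setting. Strain distance exceeded the distance between BALB/c replicates both at equal length and with lists as deposited. The same-numbered libraries alone (replicate block) gave a difference of 0.239 and a distance ratio of 0.652.

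The eosinophil lists of both strains ranked the outside lists alike, with Neut first, mBMDM second and ImmGran last. BALB/c had 0.332 and 0.343 with Neut, 0.321 and 0.332 with mBMDM, and 0.291 and 0.286 with ImmGran. For Neut and mBMDM the BALB/c indices lay within or close to the range of the C57 replicates, and for ImmGran both BALB/c values lay above both C57 values. Neut lay above mBMDM by 0.042 in C57 replicate 1 and 0.025 in replicate 2, and above it in each BALB/c replicate. The step was no larger than the shift between the C57 replicates for mBMDM (0.050), and was in the same direction in all 4 libraries. ImmGran lay below both in each C57 replicate. With lists as deposited, mBMDM was the farthest instead by the mean over the C57 replicates, though not in each. It lay below ImmGran in C57 replicate 1 (0.193 against 0.262) and above it in replicate 2 (0.303 against 0.294). In the BALB/c replicates mBMDM lay below ImmGran, at 0.239 against 0.309 and 0.267 against 0.312. At equal length, each outside list had a higher index with every eosinophil list than with another outside list, whose indices were 0.269 for Neut and mBMDM, 0.233 for mBMDM and ImmGran and 0.214 for Neut and ImmGran.

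Equal length did not make the lists equal in stringency. The lowest −log10 q kept was 1.00 in C57 replicate 1 and 26.1 in mBMDM, and the kept peaks of ImmGran had a median width of 594 bp against 794 to 1309 bp in the other lists. Counted by members in place of bases, BALB/c lists of 14992 peaks missed 21.1% and 20.1% of members, Neut missed 35.3%, mBMDM 39.8% and ImmGran 44.2%. In the lists as deposited these shares were 10.1% and 6.74% for BALB/c, 23.9% for Neut, 10.96% for mBMDM and 19.5% for ImmGran. The mBMDM list as deposited thus missed about as few members as the first BALB/c replicate did, and at equal length it missed more than either.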

How the data were processed

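Peaks were compared from 19 deposited lists on mm9, 1 per library, so peaks had not been called on pooled libraries. Per the labels' protocols, ChIP libraries were made by ChIPmentation and ATAC libraries by Omni-ATAC. Tools listed in the submitters' processing notes, with no step given for any, include Bowtie2 2.3.4.1, HOMER, bedtools 2.27.0, Picard 1.89 and Trim Galore 0.4.2. The peak caller is not given in the sources used here. Each deposited list gives the authors' score, fold enrichment and −log10 q value per peak. These rank peaks within a list and set no level between lists.

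Peaks sharing at least 1 bp were merged, and a region counted as called where a peak overlapped it. Regions named are the 3 of lowest mean rank per set and the 5 windows with most members of no outside list, leaving out chromosomes 18 and M. Code was tested on simulated lists and ran in Python 3.11.15 with numpy 2.4.6, pandas 2.3.3 and scipy 1.17.1. Wilson intervals are at 95%. C57 and BALB/c libraries share replicate numbers but no stated origin, so the main comparison is unpaired. The members, lists and tests were chosen with earlier results of these data known. RNA counts were not used, and gene names were not assigned, since the annotation at hand is of another build.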

Additional observations from a re-analysis of the deposited data

How the results depend on the processing

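Strain indices exceeded outside indices in each of the 16 alternatives tried for the Jaccard comparison, with a difference of 0.182 to 0.251, a distance ratio of 0.623 to 0.748 and an exact permutation p of 0.1 to 0.25, each the smallest that its design allows. With same-numbered libraries paired (replicate block) the difference was 0.239. No origin shared by same-numbered libraries is stated. Leaving out each library in turn gave differences of 0.212 to 0.247 and ratios of 0.633 to 0.697. The ratio moved to 0.748 when peaks were ranked by fold enrichment and to 0.727 with windows of 1000 bp. The ratio after the C57 replicate distance was taken off turned to -0.303 by fold enrichment and -0.345 with lists as deposited, rose to 0.252 with the top 5000 peaks, 0.264 when regions were counted and 0.269 with windows, and ran from -0.0647 to 0.187 over the left-out libraries. The cause was not tested.

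Members numbered 3635 at a −log10 q of at least 5, 27797 when called in either C57 library, and 14992 to 27527 with 1 C57 library. Members of no outside list numbered 355 and 36 at a −log10 q of at least 2 and 5, 1443 with outside lists at equal length, 1627 with all lists at equal length, 4811 when called in either C57 library, 1520 without the mBMDM list, and 947 to 4714 with 1 C57 library. The share in all 3 lists was 40.4% with all lists at equal length, 40.1% for regions called in either library, and 40.4% to 60.4% with 1 C57 library.

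The gap in C57 ATAC between members of all 3 and of no outside list was positive in all 17 alternatives. It was 33.9 points at an overlap of 50% of the shorter interval, 26.5 and 33.1 at the q minimums of 2 and 5, 25.8 with outside lists and 45.4 with all lists at equal length, and 23.6 with windows. It was 63.7 with either C57 library, 17.5 with an ATAC peak in either library, 23.9 without members under 600 bp (chosen after the data were seen), and 26.4, 22.7 and 25.2 without the Neut, mBMDM and ImmGran lists. Leaving out 1 library gave 21.8 to 63.4 points. The gap in BALB/c H3K27ac, 35.0 points, was positive in all 16 alternatives. It was 50.1 at a −log10 q of at least 5, 41.4 with all lists at equal length, 66.8 with either C57 library and 28.5 without ImmGran, and ran from 23.5 to 66.4 over the left-out libraries.

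Regions of all outside lists without C57 acetylation numbered 1624 and 1871 at the q minimums of 2 and 5, 306 and 260 with outside and all lists at equal length, 4761, 1773 and 2513 without Neut, mBMDM and ImmGran, and 1063 to 2933 with 1 C57 library. Their C57 ATAC share was 37.4% and 44.7% at the q minimums, 31.4% and 18.1% at equal length, 30.4% with windows, 30.2% on autosomes, 50.6% with either ATAC library, 20.9% and 23.0% without Neut and mBMDM, and 30.6% to 59.3% over the left-out libraries. Read depth is unknown, so weak regions missing from a list cannot be told apart from regions without acetylation.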

Other observations

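From the side of open chromatin, 29492 regions held an ATAC peak of both C57 libraries. Of these, 46.7% overlapped a member, 32.4% a member shared with all 3 outside lists and 1.76% a member of no outside list.

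Among autosomes, the share of members in no outside list ran from 3.12% of 705 on chromosome 6 to 7.74% of 491 on chromosome 16. On chromosome 10 the share was 5.82% of 790 members.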
